A study of Mus musculus with 4 samples.

Results

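The regulators of G protein signalling (RGS proteins) described here are 9 genes, Rgs1, Rgs2, Rgs3, Rgs10, Rgs13, Rgs14, Rgs16, Rgs18 and Rgs19, taken by name with all of their probes. They are 9 of 28307 genes or names and 16 of 41174 gene probes on the array. They were picked with their values on these same arrays known, so every level and difference of theirs is a description and carries no test.

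RNA came from cells selected by B220, a form of the CD45 phosphatase on the B lineage, and was hybridised to 1-colour Agilent arrays. There were 4 groups with 1 array each: marrow and spleen of C57BL/6 mice (wild type, WT), and marrow and spleen of mice labelled Mef2c KO, a knockout of the MADS box transcription factor Mef2c. All mice were naive and all cells were freshly isolated. The labels give neither the strain background of the knockout, the deleted part of Mef2c and the cells it is deleted in, nor the age, sex or number of animals behind an array.

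RGS proteins end the signal of receptors coupled to heterotrimeric G proteins. An activated receptor loads the G protein alpha subunit with GTP, and the RGS domain speeds the hydrolysis of that GTP, so that the alpha subunit takes up its beta and gamma partners again. In B cells many chemokine and lipid receptors that guide migration through marrow, follicles and blood signal through the Gi class of alpha subunits, and several RGS proteins are known for limiting those responses.

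Some facts of the arrays bear on every value. Both marrow arrays lay on slide 1 and both spleen arrays on slide 2, so tissue and slide cannot be told apart, and the KO sample was at position 1 and the WT sample at position 2 of each slide, so genotype and position cannot be told apart. The spleen array labelled KO stood apart: its 75th percentile of signal was 520 against 961 to 1008 on the others, and 59.3% of its gene spots were well above background against 69.0% to 72.0%. Agilent's spike-in probes, not used for scaling, ran the other way in the spleen, with a median signal of 1223 on KO and 443 on WT, beside 2210 and 1888 in the marrow. All 9 B cell markers, among them Cd79a and Ms4a1, were well above background on all 4 arrays. Their summed level, in multiples of the 75th percentile of the array, was 483 on KO and 547 on WT in the marrow. In the spleen it was 1202 and 713. The 12 neutrophil markers summed to 1445 and 441 in the marrow and 146 and 11.25 in the spleen, so the isolates are not read as B cells alone. Such a sum is linear, so the brightest markers of a list set most of it. The brighter of the Mef2c probes, at chr13:83802754-83802813 (mm9), gave signals of 5511 on KO and 4218 on WT in the marrow and 11838 on KO and 8534 on WT in the spleen, differences of 0.32 and 1.37 after scaling. A dimmer one, at chr13:83717123-83717182, gave 29 and 21 in the marrow and 128 and 364 in the spleen, differences of 0.36 and -0.61. A probe outside the deleted part checks nothing, and KO below means the array labelled so. In bulk RNA, fewer cells of a type and less RNA per cell cannot be told apart.

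A signal below is Feature Extraction's processed intensity of a probe, and a level is its log2 relative to the 75th percentile of the array. A difference is one level minus another, so that 1 is 2-fold, and a gene is counted as apart at 2-fold or more by its brightest probe. Spots that repeat a probe within an array differed by an SD (median over 245 probes, log2) of 0.0604 to 0.0742 per array, which measures spot error and not the spread between animals. With 1 array per group no difference has a replicate check. Probe positions are those of the files, in mm9, and the first 30 bases of a probe are shown, 5′ to 3′, where a result turns on it.

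By brightest probe, in the marrow 1 of the 9 genes was higher on KO (Rgs18) and 2 were lower (Rgs1 and Rgs16), where 8.35% of all measured genes were higher and 4.9% lower, 13.3% in all. Cyclic loess scaling gave 1 higher and 1 lower, without Rgs16. The median over probes and the probe nearest the 3′ end each gave 2 higher and 2 lower, with Rgs3 added as higher. In the spleen 5 were higher on KO (Rgs1, Rgs2, Rgs10, Rgs13 and Rgs18) and 0 were lower, where 19.8% of all genes were higher and 14.4% lower, 34.3% in all. Quantile normalization gave 4 higher and 1 lower and cyclic loess 3 higher and 1 lower, both with Rgs10 under 2-fold and Rgs19 lower. The median over probes gave 5 higher and 2 lower (Rgs3 and Rgs19), and the probe nearest the 3′ end 5 higher and 1 lower (Rgs3). No scaling tried used the spike-in probes, which were brighter on spleen KO than on spleen WT. The spleen counts therefore hold only for scaling to gene signals. By probes above background on both arrays, the median difference of the 9 genes was -0.18 in the marrow, beside -0.06 over all genes. In the spleen it was 1.58 beside 0.27, without Rgs16, which was not well above background on KO and was lower there as a bound.

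**Figure D1:**
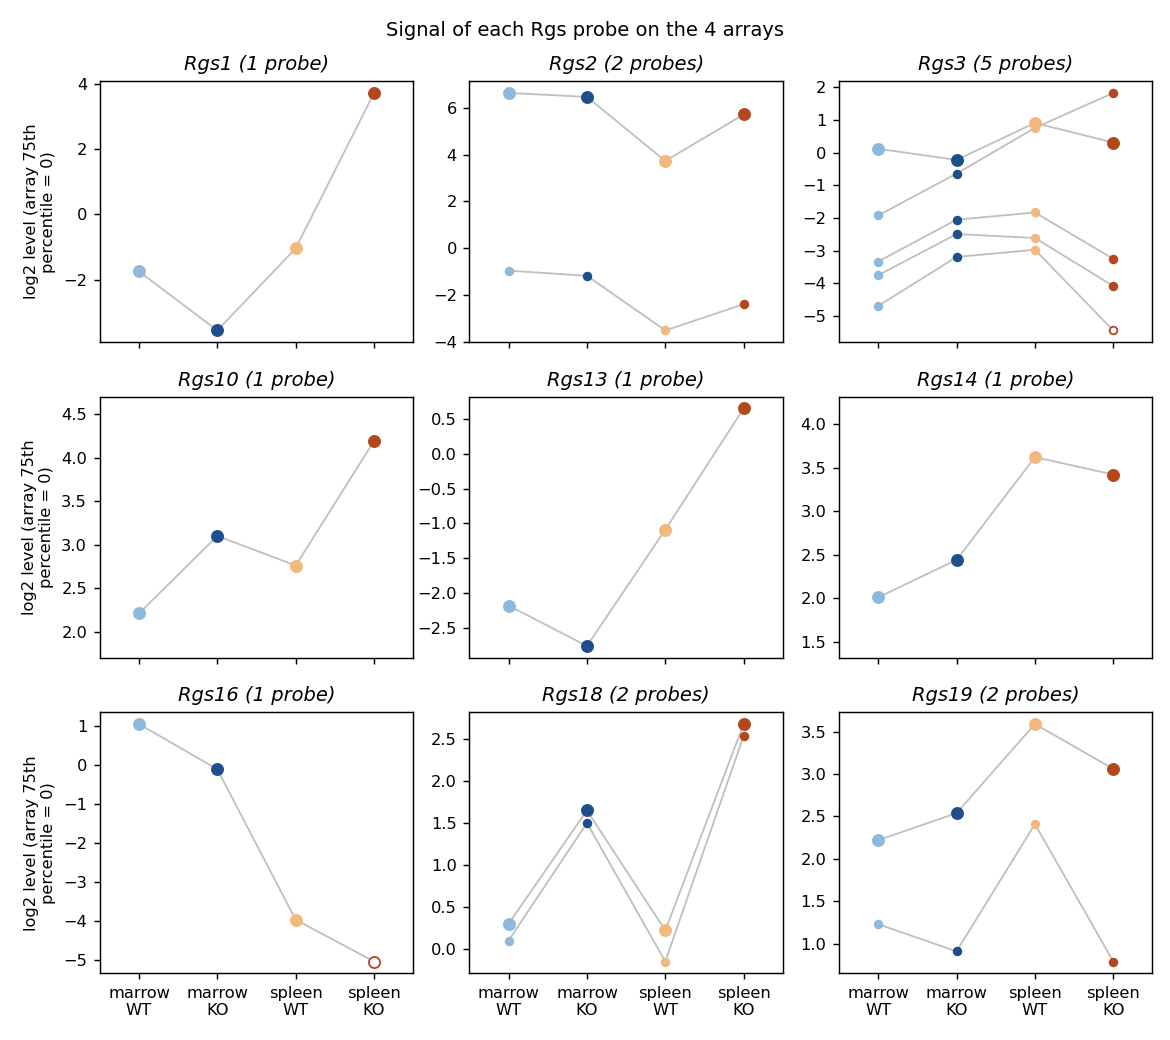
Levels of the 16 Rgs probes on the 4 arrays (x axis), as log2 relative to the 75th percentile of each array (y axis, a scale of its own for each gene), with larger points for the brightest probe and open points for values not well above background. Rgs1 spans 7.28 log2 units between marrow KO and spleen KO, and both Rgs18 probes are higher on both KO arrays.

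Rgs1, which acts on Gi and Gq alpha subunits and is known for holding back chemokine-driven migration of B cells, had the widest range of the 8 genes above background on all arrays. Its probe lies at chr1:146091962-146092021 on the minus strand and is shown because this gene had the largest KO minus WT difference of the 9 in each tissue.
Rgs1 probe: cccttggataaccagtccaaaagtatatag
Its signals were 85.7 on KO and 285 on WT in the marrow and 6889 on KO and 471 on WT in the spleen. Marrow KO was the lowest of the 4 arrays and spleen KO by far the highest, while both WT arrays lay between them. Scaled, Rgs1 was 3.49-fold lower on KO in the marrow, a difference of -1.80, and 27.3-fold higher on KO in the spleen, a difference of 4.77. The marrow difference lay below the 5th percentile of all measured probes, -0.96, and the spleen difference above the 95th, 1.77. Over background, scaling and probe settings the marrow difference ran from -1.80 to -1.22 and the spleen difference from 4.52 to 5.19. Between the WT arrays Rgs1 was 1.64-fold higher in the spleen than in the marrow, and between the KO arrays 156-fold.

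The genes whose 4 levels, each centred on its own mean, lay nearest to those of Rgs1 were Ackr3, Ak7, Gpr34, Clec4n and P2ry10, among 16515 genes above background on all 4 arrays. Their Euclidean distances were 1.49, 1.66, 1.69, 1.79 and 1.86 log2 units over 4 arrays. Each was highest on spleen KO, with centred levels of 3.23 for Ackr3, 3.70 for Ak7, 4.15 for Gpr34, 3.75 for Clec4n and 2.94 for P2ry10 against 4.38 for Rgs1. That follows from the choice, since they were picked for levels near those of Rgs1. Marrow KO was the lowest array for Ackr3 and P2ry10, as for Rgs1, and marrow WT for Ak7, Gpr34 and, by a margin of 0.01, Clec4n.

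Some immediate early genes, which cells switch on within minutes of stimulation or handling, were also higher on spleen KO. Of 14, 7 were higher on KO in the spleen, 1, Zfp36, was lower, and the rest were under 2-fold apart. Over all measured genes 19.8% were higher and 14.4% lower there. The largest differences of the 14 were 2.98 for Dusp1, 2.54 for Atf3 and 2.11 for Jun. The summed level of the 14, in multiples of the 75th percentile of the array, was 113 on KO and 109 on WT in the marrow and 168 on KO and 92.7 on WT in the spleen, and all 14 were above background on every array. In the marrow 2 were higher, Fos and Ier3, and 1, Egr3, was lower, where 8.35% of all genes were higher and 4.9% lower. The part of immediate early genes in the Rgs1 values was not tested.

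Rgs2, selective for Gq alpha subunits and itself an inducible gene, was brightest in the marrow. Its main probe is at chr1:145848293-145848352 and a dimmer one, 3′ of it in the transcript, at chr1:145847227-145847286, both on the minus strand.
Rgs2 main probe: agggtgttgacgttcttaggactacagatc
Rgs2 dimmer probe: ctatttgccaaaagaaatagtctttatgac
The main probe had signals of 88639 on KO and 95423 on WT in the marrow and 27295 on KO and 12891 on WT in the spleen. The dimmer probe gave 449, 499, 99.6 and 86.0 in the same order. By both probes the marrow arrays were close to each other and above both spleen arrays. The main probe differed by -0.18 between genotypes in the marrow and 1.98 in the spleen, 3.95-fold higher on KO, and the dimmer one by -0.22 and 1.11. The spleen value of the main probe was 1.17 with quantile normalization and 0.96, under 2-fold, with cyclic loess. Between the WT arrays Rgs2 was 7.48-fold lower in the spleen by the main probe and 5.86-fold by the dimmer one.

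Rgs13, a small RGS protein of germinal centre B cells and mast cells, was dim in the marrow. Its probe at chr1:145986491-145986550, minus strand, had signals of 149 on KO and 212 on WT in the marrow and 815 on KO and 457 on WT in the spleen. The order of the arrays was that of Rgs1, with marrow KO lowest and spleen KO highest, over 3.40 log2 units. It was 1.49-fold lower on KO in the marrow and 3.33-fold higher on KO in the spleen, and the spleen difference ran from 1.56 to 2.15 over the settings tried. Of mast cell and basophil markers, 7 were on the array, and their summed level was 1.16 on KO and 0.82 on WT in the marrow and 0.87 on KO and 0.38 on WT in the spleen. On spleen KO, Mcpt8, Ms4a2, Prss34 and Gata2 were not well above background. Fcer1a, 2.15 higher on KO, was the 1 marker of the list at least 2-fold higher there, as were 19.8% of all measured genes. The part of such cells in the Rgs13 values was not tested.

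Rgs18, which acts on Gi and Gq alpha subunits and is known from platelets, megakaryocytes and other blood cells, was higher on KO in both tissues by both of its probes. The brighter lies at chr1:146600137-146600196 and the other at chr1:146600500-146600559, on the minus strand.
Rgs18 brighter probe: tgcttgaacgatgaagatggcatactttca
Rgs18 other probe: ttacataatgatggattgaggcttatagaa
The brighter probe had signals of 3172 on KO and 1183 on WT in the marrow and 3326 on KO and 1127 on WT in the spleen. The other gave 2856, 1033, 3015 and 877. Both KO arrays were high and both WT arrays low, with the WT tissues only 1.06-fold and 1.19-fold apart. The differences were 1.35 and 1.40 in the marrow and 2.46 and 2.68 in the spleen, and by brightest probe they stayed between 1.31 and 1.38 and between 2.16 and 2.88 under every setting tried. Rgs18 was the 1 gene of the 9 at least 2-fold apart in the same direction in both tissues by its brightest probe.

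Markers of other blood cells moved in part with Rgs18. Their counts stand beside shares over all measured genes of 8.35% higher and 4.9% lower on KO in the marrow. In the spleen these shares were 19.8% and 14.4%. Of 8 platelet and megakaryocyte markers, 5 were higher on KO in the marrow, among them Pf4 by 2.17 and Thbs1 by 3.48, and in the spleen 0 of 6 measured were at least 2-fold apart. Their summed level was 19.9 on KO and 5.59 on WT in the marrow and 1.0 on KO and 0.74 on WT in the spleen, with Itga2b, Gp5 and Thbs1 not above background on spleen KO. In the spleen the measured differences were 0.38 for Pf4, 0.65 for Ppbp, 0.37 for Gp9, 0.71 for Gp1bb and 0.50 for Treml1, and Itga2b, dim on KO, had no bound above 0. Of 12 neutrophil markers, 11 were higher on KO in the marrow and in the spleen, of 11 measured, 6 were higher and 1, Mmp9, was lower by at least 1.49 log2 units, with summed levels of 1445 on KO and 441 on WT in the marrow and 146 on KO and 11.25 on WT in the spleen, with Elane dim on both spleen arrays and Mmp9 on spleen KO. S100a9 and S100a8, with signals of 60454 and 12790, made up most of the spleen KO sum. Cxcr2 and Csf3r differed by only 0.44 and 0.27 in the spleen. Of 12 macrophage and monocyte markers, 3 were higher on KO in the marrow, and in the spleen 6 were higher and 1 was lower, with summed levels of 35.2, 21.3, 135 and 55.1 in the same order. The part of the platelet, neutrophil and macrophage signals in the Rgs18 values was not tested.

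Rgs16, an inducible RGS protein that acts on Gi and Gq alpha subunits, was a marrow transcript on these arrays. Its probe is at chr1:155592244-155592303 on the plus strand.
Rgs16 probe: gagagaactcttttaagtataatattgtgt
Its signals were 935 on KO and 1988 on WT in the marrow and 15.9 on KO and 62.2 on WT in the spleen, and the spleen KO value was not well above background. Both marrow arrays were far above both spleen arrays. It was 2.23-fold lower on KO in the marrow, a difference of -1.16 that was -0.98 with cyclic loess. In the spleen it was at least 1.97-fold lower on KO, a bound that fell to no difference with normexp background correction. Between tissues it was 32.3-fold lower in the spleen for WT and at least 28.5-fold lower for KO, the widest tissue difference of the 9 genes for WT.

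**Figure D2:**
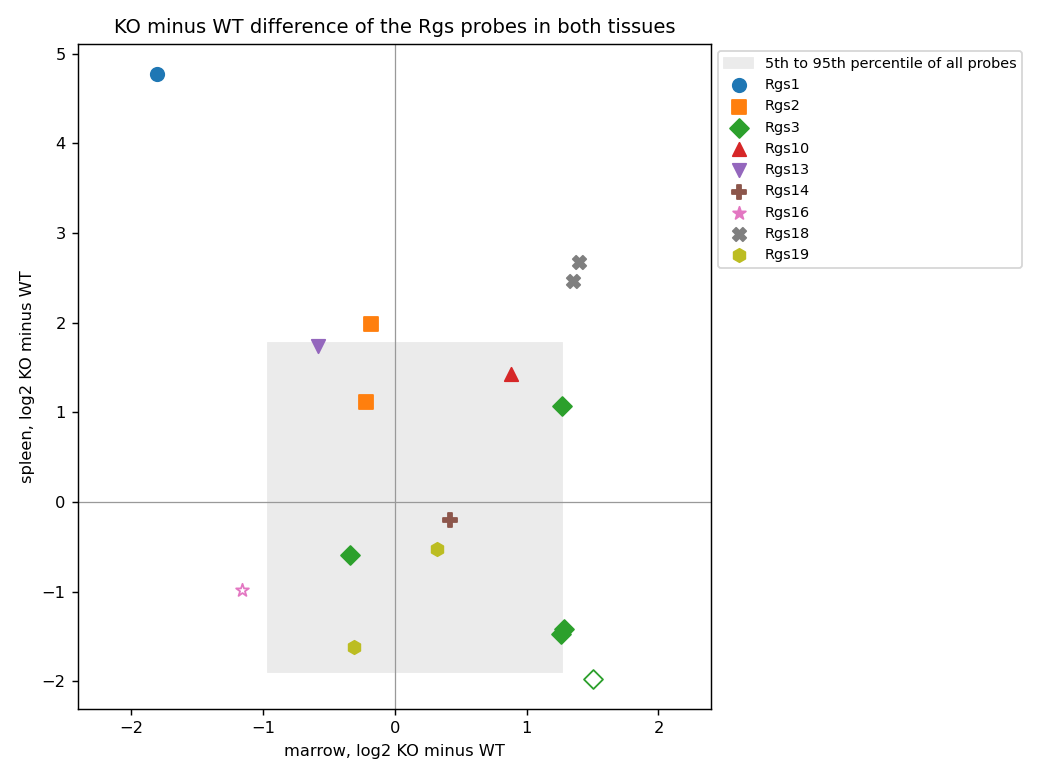
KO minus WT difference of each Rgs probe in the marrow (x axis) and in the spleen (y axis), both log2, with the grey box from the 5th to the 95th percentile of all measured probes and open symbols for lower bounds. Rgs1 lies at -1.80 and 4.77, both Rgs18 probes are right of and above the box, and the 3 Rgs3 probes of the domain lie at the lower right.

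Rgs3, which has several isoforms that share an RGS domain at their C-terminal end and acts on Gi and Gq alpha subunits, had 5 probes that did not move together. The files assign 4 of them to transcript variant 2, at bases 1466, 2570, 2734 and 2824 of that transcript, and 1 to variant 1, at base 4581. The last 3 of variant 2 lie in the stretch that encodes the RGS domain and are shown whole because they went opposite ways in the tissues. They cover chr4:62361410-62362087, chr4:62362192-62363110 and chr4:62363141-62363200 on the plus strand. The intervals of the first and the second are 678 and 919 bases long for a probe of 60, so these probes cross an exon junction.
Rgs3 base 2570: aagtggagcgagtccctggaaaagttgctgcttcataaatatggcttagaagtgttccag
Rgs3 base 2734: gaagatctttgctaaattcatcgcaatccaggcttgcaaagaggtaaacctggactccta
Rgs3 base 2824: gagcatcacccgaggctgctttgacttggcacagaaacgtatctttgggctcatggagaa
The probe at base 2570 had signals of 180 on KO and 71.4 on WT in the marrow and 30.7 on KO and 159 on WT in the spleen. The probe at base 2734 gave 110, 37.2, 12.0 and 123, with spleen KO not well above background. The probe at base 2824 gave 243, 95.5, 54.6 and 273. All 3 were higher on marrow KO and spleen WT and lower on marrow WT and spleen KO. Their differences were 1.26, 1.5 and 1.28 in the marrow, and in the spleen -1.47, at least 3.91-fold lower, and -1.42. These probes share a transcript and are no replicates of each other. With normexp background correction all of them came under 2-fold, at 0.73, 0.64 and 0.88 in the marrow and -0.33, -0.39 and -0.63 in the spleen, with the same signs.

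The other Rgs3 probes gave another picture. The brightest, at base 1466 and chr4:62350689-62350748, had signals of 866 on KO and 1043 on WT in the marrow and 646 on KO and 1822 on WT in the spleen. It differed by -0.34 in the marrow and -0.59 in the spleen, under 2-fold in both, and it stands for Rgs3 in the gene counts. The variant 1 probe, at chr4:62320758-62320817, had signals of 645, 254, 1845 and 1645 in the same order of arrays. It was higher on KO in both tissues, by 1.27 and by 1.07, the latter 0.82 with quantile normalization. It was also 6.41-fold higher in the spleen than in the marrow for WT and 5.55-fold for KO. Whether a probe assigned to one variant also binds another was not examined.

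**Figure D3:**
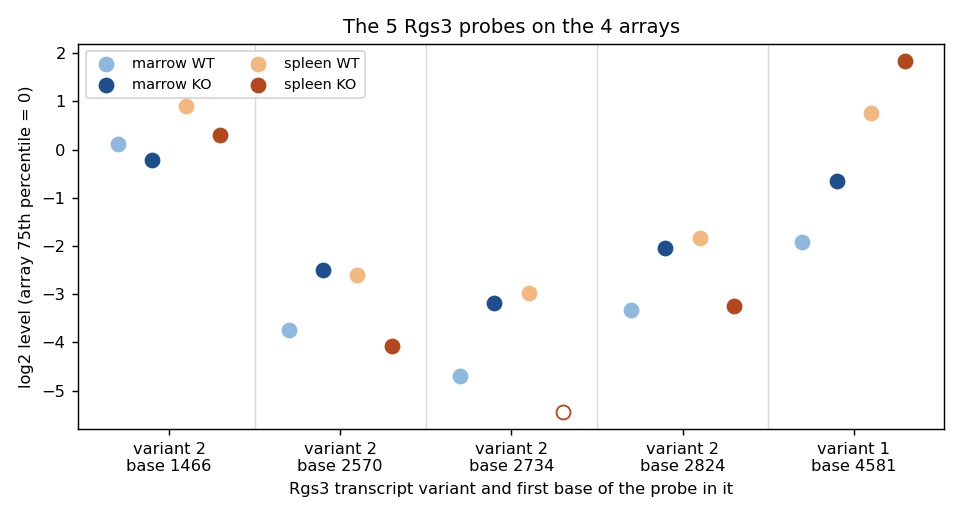
Levels of the 5 Rgs3 probes on the 4 arrays, as log2 relative to the 75th percentile of each array (y axis), by transcript variant and first base of the probe (x axis), with an open point for a value not well above background. The probes at bases 2570, 2734 and 2824 are lowest on marrow WT and spleen KO, and the variant 1 probe is highest on spleen KO.

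Rgs10 and Rgs14 belong to the R12 subfamily, which acts on Gi alpha subunits. Rgs10 is little more than an RGS domain, and its probe at chr7:135517256-135517315, minus strand, had signals of 8627 on KO and 4461 on WT in the marrow and 9505 on KO and 6588 on WT in the spleen. Both KO arrays were above both WT arrays. It was 1.84-fold higher on KO in the marrow and 2.69-fold in the spleen, and the spleen difference of 1.43 fell to 0.77 with quantile normalization and 0.82 with cyclic loess. Rgs14 also holds Ras-binding domains and a GoLoco motif that binds inactive alpha subunits, and its probe at chr13:55485762-55485821, plus strand, had signals of 5458, 3875, 5551 and 11909 in the same order. Spleen WT was the highest array. It differed by 0.42 in the marrow and -0.20 in the spleen, which became 0.22 with the array median and -0.89 with quantile normalization, so no direction is given for the spleen. For WT it was 3.04-fold higher in the spleen than in the marrow.

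Rgs19, also called GAIP, acts on Gi alpha subunits and binds the scaffold protein GIPC. Its brighter probe, at chr2:181423447-181423506, had signals of 5877 on KO and 4491 on WT in the marrow and 4338 on KO and 11662 on WT in the spleen. The other probe, at chr2:181423795-181423854, gave 1901, 2248, 902 and 5158. Spleen WT was the highest array by both. In the marrow the probes differed in sign, at 0.32 and -0.31, both under 2-fold. In the spleen both were lower on KO, at -0.53 for the brighter and -1.62 for the other, and the brighter one ran from -1.17 with quantile normalization to -0.11 with the array median. For WT Rgs19 was 2.57-fold and 2.27-fold higher in the spleen than in the marrow.

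Counted over probes, 6 of the 16 were higher on KO and 2 lower in the marrow, where 12.9% of all measured probes were apart, 7.65% higher and 5.3% lower. In the spleen 8 were higher and 4 lower, where 35.9% were apart, 17.4% higher and 18.5% lower. Of all 27483 probes measured in both tissues, 172, or 0.626%, were at least 2-fold apart in opposite directions, and 4 of them were the Rgs1 probe and the 3 Rgs3 domain probes. In the same direction 1277 probes, or 4.65%, were apart, among them both Rgs18 probes and the Rgs3 variant 1 probe. The 16 probes were chosen with these values known, so nothing is read from these shares.

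Between tissues, the WT spleen array had 3 of the 9 genes at least 2-fold above the WT marrow array (Rgs13, Rgs14 and Rgs19) and 2 below it (Rgs2 and Rgs16), where 31.2% of all genes were apart, 15.5% higher and 15.7% lower. Normexp and the array median each gave 2 above and 2 below for WT, without Rgs13, at 0.94 and 0.92. The KO spleen array had 4 above the KO marrow array (Rgs1, Rgs10, Rgs13 and Rgs18) and 1 below it (Rgs16), where 29.6% of all genes were apart, 15.7% higher and 13.9% lower. Quantile normalization and cyclic loess each gave 2 above and 2 below for KO. Both comparisons share their arrays with the genotype comparisons, and tissue cannot be told apart from slide. Rgs13 was higher and Rgs16 lower in the spleen for both genotypes, by 1.09 and -5.01 for WT and by 3.40 and at least 28.5-fold for KO. Over probes, 8 were higher and 3 lower in the spleen for WT, where 32.3% of all probes were apart, 17.8% higher and 14.5% lower. For KO 6 were higher and 5 lower, where 28.7% were apart, 14.7% higher and 14% lower.

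Rgs1, Rgs2, Rgs13 and Rgs18 are neighbours on chromosome 1, with their 6 probes between 145847227 and 146600559 of mm9. In the spleen all 4 genes were at least 2-fold higher on KO, where 19.8% of all measured genes were higher and 14.4% lower. The group was formed after these values were seen, so nothing is read from that count. Rgs2 alone of them came under 2-fold in any scaling tried, with cyclic loess. In the marrow they parted: Rgs1 was lower, at -1.80, Rgs2 and Rgs13 differed by -0.18 and -0.58, and Rgs18 was higher by 1.35.

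Promoter windows of RefSeq, build GRCm38.p6, were at hand for 6 of the 9 genes, as 9 windows of which the 250 bases before the start are used here. The windows of Rgs2 and Rgs16 are shown because both genes were higher in the marrow than in the spleen on the WT arrays, by 7.48-fold and 32.3-fold. Capitals mark CCAAT and TGACG on either strand. They lie at chr1:144004150-144004399, minus strand, and chr1:153740103-153740352, plus strand.
Rgs2: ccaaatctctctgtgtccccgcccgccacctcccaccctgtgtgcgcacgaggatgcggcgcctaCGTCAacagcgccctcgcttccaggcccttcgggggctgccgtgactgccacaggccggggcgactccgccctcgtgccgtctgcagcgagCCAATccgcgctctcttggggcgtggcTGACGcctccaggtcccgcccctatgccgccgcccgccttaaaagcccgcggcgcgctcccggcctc
Rgs16: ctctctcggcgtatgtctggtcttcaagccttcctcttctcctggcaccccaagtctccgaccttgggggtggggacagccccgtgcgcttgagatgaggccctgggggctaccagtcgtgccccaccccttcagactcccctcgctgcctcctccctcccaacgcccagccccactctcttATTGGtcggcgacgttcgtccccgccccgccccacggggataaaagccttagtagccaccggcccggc
Both are rich in G and C, at 72.4% and 66.4%, beside a median of 52.4% over 32851 windows of the same length. The Rgs10 window held 76.4% and the Rgs19 windows 64.8%, 74.8% and 54.4%, and neither gene was higher in the marrow for WT. Rgs3 had 48.4% and 56.8%, and Rgs13 had 36%. CCAAT, searched on both strands, was in the windows of Rgs2 and Rgs16 and in 33.8% of all windows. TGACG, the core of the site for cyclic AMP responsive factors, was in that of Rgs2 and in 17.8% of all windows, and its palindrome TGACGTCA in none of the 9 and in 1.55% of all. GGGCGG was in 6 of the 9 and in 32.7% of all, and TATAAA in both Rgs3 windows and in 12.4% of all. The Rgs19 windows at chr2:181693978-181694227 and chr2:181693811-181694060 overlap and share a GGGCGG, which is counted in each. The MEF2 consensus was in 0 of the 9 windows and in 2.92% of all, which says only that these letters are not in these 250 bases.

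The rest of the pathway was read from 7 lists. Of 14 other Rgs family genes and partners, 13 were on the array, 8 were measured in the marrow and 3 in the spleen. In the marrow 3 were higher on KO and 0 lower, and in the spleen 1 was higher and 0 lower. Rgs5, known from pericytes, had the largest measured marrow difference, 1.84, and Rgs4 the smallest, -0.30. Rgs9, an R7 regulator of retina and striatum, was at least 2-fold higher on KO in both tissues after scaling, as bounds of 1.01 and 1.08. Before scaling its signals were low, at 32.4 on KO and 15.4 on WT in the marrow. In the spleen they were close to each other, at 25.5 on KO and 22.5 on WT. Neither WT value was well above background. In the spleen Rgs12 differed by 0.63 and Rgs11 by 0.15. Rgs21 had no probe, and Rgs6, Rgs7, Rgs17, Rgs22 and Rgs7bp were not above background on any array.

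Of 15 alpha subunits, 1 was higher and 1 lower on KO in the marrow, and in the spleen 3 of 13 were higher and 4 lower. Gnaz, the Gz subunit on which Rgs19 and its relatives act, was higher by 2.90 in the marrow and 1.35 in the spleen. Gnal, an olfactory Gs subunit, was lower, at -1.88 in the marrow and by at least 1.40 log2 units in the spleen. Gnai3, a Gi subunit, differed by 0.28 and 1.62, and Gna11, of the Gq class, by -0.82 and -1.43. Of beta and gamma subunits, 2 of 14 were higher and 1 lower in the marrow, and 4 of 13 were higher and 2 lower in the spleen. Gng10 was higher in both tissues, by 1.19 and 2.42, and Gngt2 lower in both, at -1.03 and -1.09. Gng11 differed by 1.53 and 0.12, and Gnb2 by -0.54 and -1.38.

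Of 13 other proteins with an RGS-like domain or that bind alpha subunits, 0 were higher and 2 lower on KO in the marrow, and 2 were higher and 4 lower in the spleen. Axin1, the scaffold of the beta-catenin destruction complex, was lower in both, at -1.21 and -1.72. Arhgef1, an exchange factor of lymphocytes that G12 and G13 subunits act on, differed by -0.35 in the marrow and -3.21 in the spleen. Arhgef12 differed by 0.98 and 0.33. Snx13, a sorting nexin, differed by 0.30 and 1.93, and Ric8, an exchange factor for alpha subunits, by -1.54 in the marrow, while in the spleen it was at least 0.47 log2 units lower on KO.

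Of 7 receptor kinases and arrestins, 1 was higher and 0 lower on KO in the marrow, and 3 were higher and 1 lower in the spleen. Arrb2, beta-arrestin 2, was higher in both, by 2.50 and 1.40, and Grk6, a receptor kinase of blood cells, differed by -0.38 and -1.62. Of 21 effectors and cyclic AMP genes, 4 of 18 were higher and 1 lower in the marrow, and 2 of 16 were higher and 2 lower in the spleen. Adcy6, an adenylyl cyclase, was higher in both by 1.03 and 1.94, and Prkar2b, a regulatory subunit of protein kinase A, by 1.20 and 1.70. Of the other cyclases, Adcy4 differed by 1.22 in the marrow, Adcy1 by -1.03 in the marrow and Adcy3 by -1.20 in the spleen.

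Of 15 receptors of B cell migration, 1 was higher and 3 lower on KO in the marrow, and 5 were higher and 6 lower in the spleen. Ccr6, the receptor of Ccl20, was lower in both, at -1.57 and -1.23, and S1pr4, a receptor of sphingosine 1-phosphate, at -1.06 and -1.90. Gpr34, a receptor of lysophosphatidylserine, had the largest spleen difference, 4.27, with signals of 73.8 on KO and 48.4 on WT in the marrow and 2263 on KO and 220 on WT in the spleen. S1pr2, which holds B cells in germinal centres through G13, was 1.05 higher on KO in the marrow and at least 3.01 log2 units lower in the spleen.

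Summed over the 7 lists, 12 genes were higher and 8 lower on KO in the marrow, and 20 were higher and 19 lower in the spleen. Of all measured genes, 8.35% were higher and 4.9% lower in the marrow, and 19.8% were higher and 14.4% lower in the spleen. The lists were chosen with earlier results known, so nothing is read from these counts. The array median gave 29 higher and 9 lower in the spleen, and cyclic loess 13 higher and 5 lower in the marrow. List medians by probes above background on both arrays ran from -0.62 for the migration receptors to 0.45 for the kinases and arrestins in the marrow, beside -0.06 for all genes. In the spleen they ran from -0.16 for the RGS-like proteins to 0.99 for the kinases and arrestins, beside 0.27.

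**Figure D4:**
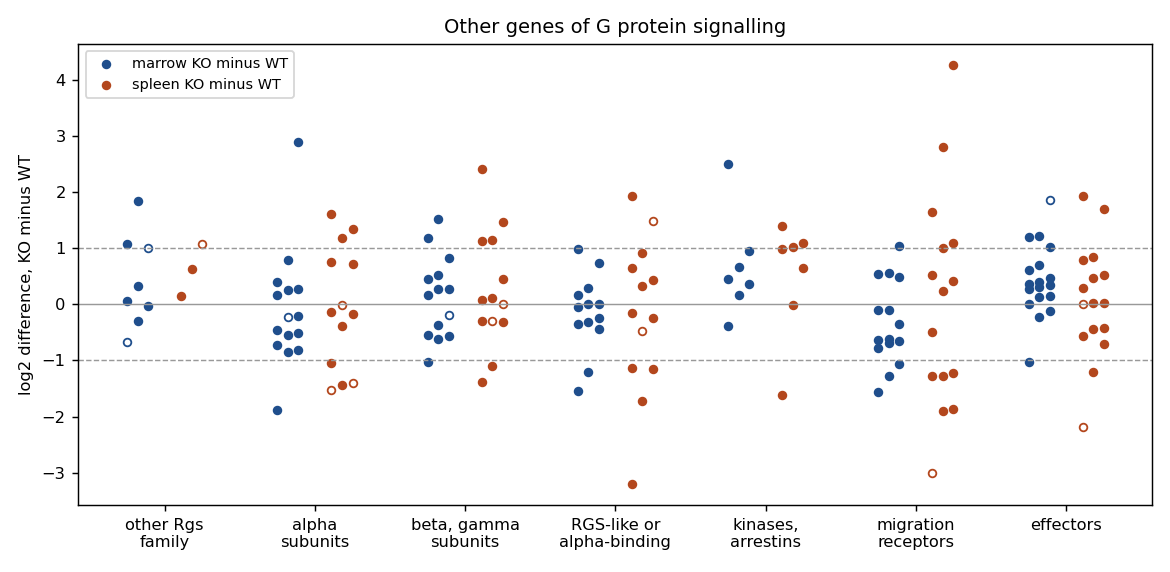
KO minus WT difference (y axis, log2) of each measured gene of the 7 pathway lists (x axis) in marrow and spleen, with dashed lines at 2-fold and open points for lower bounds. The highest point is Gpr34 in the spleen, at 4.27, and the lowest Arhgef1 in the spleen, at -3.21.

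**Figure D5:**
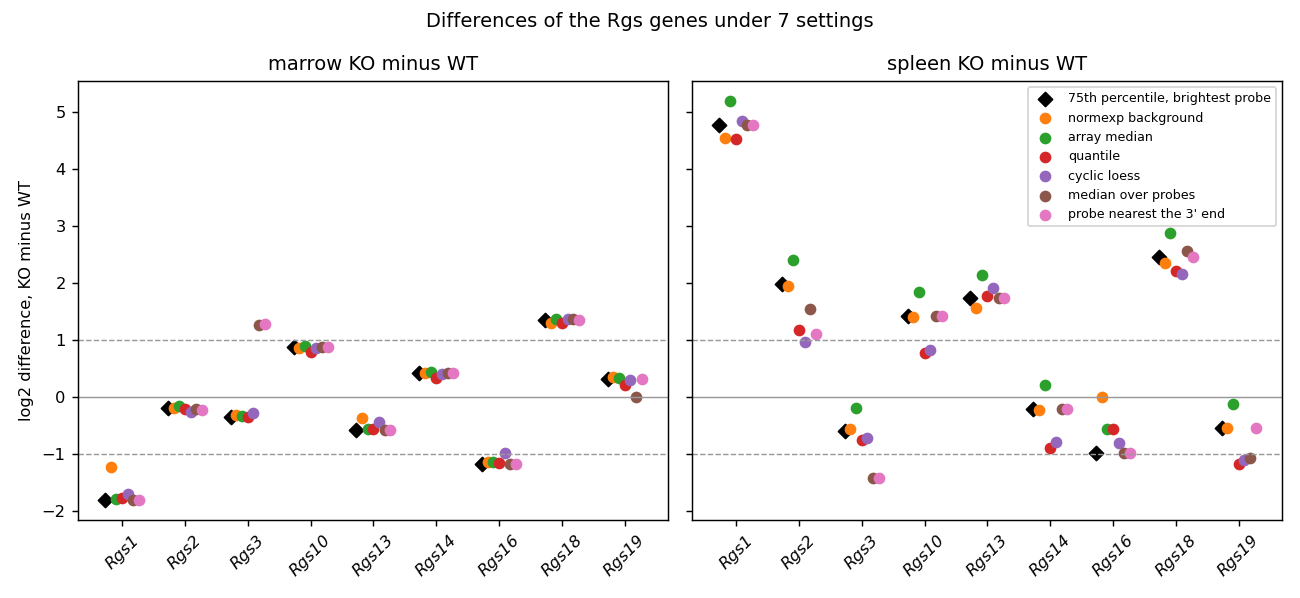
KO minus WT difference (y axis, log2) of each of the 9 Rgs genes (x axis) in both tissues under 7 settings of background, scaling and probe choice, with dashed lines at 2-fold. Rgs18 is past 2-fold in both tissues under each setting shown, and Rgs3 in the marrow changes from -0.34 to 1.28 with the probe that stands for it.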

How the data were processed

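The deposited scanner files hold 1 array each, as linear intensity that the authors obtained from Agilent Feature Extraction 10.5.1.1, per the file headers, with probes placed on mm9. The deposited series matrix equalled the processed intensity at all 45018 spots of every array, with a tolerance of 0. No normalization between arrays is recorded. Per the labels, a Qiagen kit gave the RNA and Cy3 was the dye. From the deposited intensity, log2 levels were computed in Python 3.11.15: control spots and 72 to 85 outlier spots per array were left out, each array was set to its own 75th percentile of gene spots, and a probe with several spots took their mean. No gene spot was saturated, and 0 columns belonged to no sample.

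A gene stands for its brightest probe over the 4 arrays. It was measured where well above background, by the mark of the files, on at least 1 array of a comparison. Where it was so on 1 array only, the difference is a bound, written as at least, set against the dim probe's value or the lowest value on that array that passed the background mark, whichever was higher. Background and scaling alternatives (normexp with an offset of 50, quantile, cyclic loess) used limma 3.58.1 in R 4.3.3, and the counting was tested on simulated data. The number of arrays limits the precision, and no test was run.

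The genes and lists were chosen with earlier results of these data known. Named are every Rgs gene with each probe, of the pathway lists the genes at least 2-fold apart the same way in both tissues and those with the largest and smallest measured difference in each tissue, and the 5 genes nearest to the widest-ranging Rgs gene. Marker genes named beside a result, other genes not above background and the Rgs chromosome 1 group were chosen after their values were seen. Cell type lists not described beside a result were those of T cells, NK cells, erythroid cells and plasmacytoid dendritic cells.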

Additional observations from a re-analysis of the deposited data

Results flagged for a closer look

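Rgs1 differed in opposite directions in the tissues, by -1.80 in the marrow and 4.77 in the spleen (log2, KO minus WT). The 3 Rgs3 probes of the RGS domain did so the other way. The probe at base 2570 of the transcript differed by 1.26 in the marrow and -1.47 in the spleen, that at base 2734 by 1.5 and, as a bound, -1.97, and that at base 2824 by 1.28 and -1.42. With 1 array per group, the difference between the tissues was not tested. Tissue and slide cannot be told apart here, and the spleen array labelled KO was the dimmest of the 4.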

How the results depend on the processing

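No paired analysis was possible because each group has 1 array, and for the same reason no array could be left out of a group. Choosing the brightest probe without the spleen KO array changed no count of Rgs genes. At 3-fold in place of 2-fold the count of Rgs genes apart fell from 3 to 1 in the marrow, and from 5 to 3 between tissues in each genotype. With normexp background correction 8 of the pathway genes were apart in the marrow in place of 20. No Rgs gene counted as apart changed sign under any setting tried. Every scaling among these settings sets the bulk of gene signals level between arrays. None used the spike-in probes, which ran the other way in the spleen. A scaling to them would lower every spleen KO minus WT difference given here, and signs and counts under it were not examined. Rgs14 in the spleen, under 2-fold, ran from -0.89 to 0.22. Rgs3 in the marrow was 1.27 by the median over probes, against -0.34. The cause of these shifts was not tested, apart from the choice of fold and probe, which act by construction.

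Scaling to the array median moved the median of all genes by 0.42 for spleen KO minus WT, -0.17 for WT spleen minus marrow and 0.23 for KO spleen minus marrow, normexp moved the KO tissues by 0.15, and cyclic loess by -0.11. Relative to these medians, Rgs1 in the spleen was 4.50 as reported and 4.50 with the array median. The share of higher among all genes apart was 63% in the marrow, 75.2% with normexp and 74.9% with cyclic loess. In the spleen it was 57.9%, 69.9% with normexp and 79.7% with the array median. Between tissues it was 49.6% for WT, 38.9% with the array median, and 53.1% for KO, 65.1% with the array median and 43.9% with cyclic loess. Normexp brought the share of genes apart to 6.5% in the marrow and 20% between the WT tissues, from 13.3% and 31.2%. Dim probes limit Rgs16 and, for Rgs3, the probe at base 2734 in the spleen, where their KO values were not well above background.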

Other observations

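At the Rgs2 locus the array holds a further probe that the files name only as a transcript cluster, at chr1:145849832-145849891 of mm9, and which is not counted among the Rgs probes. Its signals were 1154 on KO and 542 on WT in the marrow and 337 on KO and 276 on WT in the spleen. It was higher on KO in both tissues, by 1.02 and 1.19 (log2), and lower in the spleen than in the marrow, by -0.99 for WT and -0.82 for KO. The main Rgs2 probe differed by -0.18 in the marrow and 1.98 in the spleen.

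Of the cell type lists set beside no result, 4 of 8 T cell markers were higher and 0 lower on KO in the marrow, and 1 was higher and 1 lower in the spleen. Of 7 NK cell markers, 1 was higher in the marrow, and in the spleen 1 was higher and 2 were lower. Of 5 measured erythroid markers, 0 were higher and 1 lower in the marrow, and 4 were higher in the spleen, with summed levels, in multiples of the 75th percentile of the array, of 5.35 on KO and 8.11 on WT in the marrow and 28.0 on KO and 7.68 on WT in the spleen. Of 7 plasmacytoid dendritic cell markers, 0 were apart in the marrow, and 2 were higher and 1 lower in the spleen. Of the 9 B cell markers, 3 were lower on KO in the marrow, and in the spleen 3 were higher and 4 lower. Over all measured genes 8.35% were higher and 4.9% lower on KO in the marrow, and 19.8% and 14.4% in the spleen. Nothing is read from the counts of these lists.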
